A study of Mus musculus with 20 samples.

Results

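The inner dynein arm genes described here were 9 of the 38355 genes in the deposited expression table. They were taken by symbol: the heavy chains Dnahc1, Dnahc2, Dnahc3, Dnahc6, Dnahc7a, Dnahc7b, Dnahc10 and Dnahc12 (Dnahc is an older spelling of Dnah), and the light chain Dnali1. All 9 were found, and all 9 passed the filter on low values. The study followed primary mouse tracheal epithelial cells, grown on porous membranes with air on one side so that part of them turn into multiciliated cells. Polyadenylated RNA was sequenced at 0, 4, 7 and 14 days of air exposure from cultures of wild-type mice and of mice that lack p73 in the whole body. Each day had 3 wild-type and 2 knockout libraries, so 20 libraries in 8 groups. The design text speaks of 3 biological replicates per genotype, of which 2 knockout ones are in the data used here. No strain, age or sex is given for the mice, nor how many mice made up a culture or which part of the p73 gene was removed.

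Motile cilia beat because rows of dynein motors on each outer microtubule doublet push against the neighbouring doublet. The outer arms set mainly the beat frequency, and the inner arms shape the bend. In the green alga Chlamydomonas the inner arms are 1 motor with a pair of heavy chains, called I1 or f, and several kinds with a single heavy chain, which carry either a p28 light chain or centrin. Dnahc10 and Dnahc2 are the mouse counterparts of the I1/f heavy chains. Dnahc1, Dnahc3, Dnahc6, Dnahc7a, Dnahc7b and Dnahc12 are classed with the single-headed heavy chains, and Dnali1 is the p28 counterpart. In the airway these genes are used by multiciliated cells, which move mucus, and p73 is known as an activator of genes of that cell type.

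Several facts about the libraries touch the results. Reads assigned to genes ranged from 3266912 in wild-type replicate 3 of day 4 to 31529799 in knockout replicate 1 of day 0. Trp73, the gene of p73, was at 2.70, 2.20 and 1.07 reads per 1000000 assigned reads, after TMM scaling (CPM), in wild type and at 49.2 and 48.7 CPM in the knockout at day 0, which goes against the label. At day 14 it was at 23.3, 27.0 and 27.2 CPM in wild type and at 30.5 and 16.7 CPM in the knockout. A value for the whole gene cannot show whether part of it was deleted, so these libraries are called labelled knockout. The titles of the 2 replicate 1 libraries of day 4 name day 3. The epithelial marker Epcam was at 274 to 994 CPM over the 20 libraries. Of 10 leukocyte genes, 7 (Ptprc among them) did not exceed 0.466 CPM in any library. The other 3 did: Lyz2 reached 7213 CPM in labelled knockout replicate 2 of day 4, Cd68 85.7 and Itgam 47.4 CPM in labelled knockout replicate 2 of day 0.

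In wild type all 9 genes were low at day 0 and high at day 14. At day 14 the labelled knockout was called lower for 8 of them (adjusted p under 0.05 in limma), against 3.8% of all tested genes. Both labelled knockout libraries were below all wild-type libraries for all 9 genes, against 17.6% of all tested genes. The summed level of the 9 genes in wild type was 5.29 to 8.75 CPM at day 0, 93.3 to 282 at day 4, 413 to 669 at day 7 and 601 to 880 at day 14. In the labelled knockout it was 4.75 and 3.52 CPM at day 0, 181 and 106 at day 4, 218 and 217 at day 7 and 200 and 178 at day 14. The groups stood apart at day 0, where levels were low, overlapped at day 4 and stood apart again at days 7 and 14. The overlap at day 4 came from wild-type replicate 1, which is titled day 3, at 93.3 CPM. Labelled knockout replicate 1, also titled day 3, was at 181 CPM, below wild-type replicates 2 and 3. Without both replicate 1 libraries wild type was at 282 and 272 CPM and the labelled knockout at 106. That value is from 1 library, the lower labelled knockout library of that day. At day 14 the labelled knockout held between 12.7% (Dnahc3) and 44.9% (Dnahc7b) of the wild-type mean. In bulk RNA a culture with fewer multiciliated cells and one with less of these transcripts per cell cannot be told apart.

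**Figure D1:**
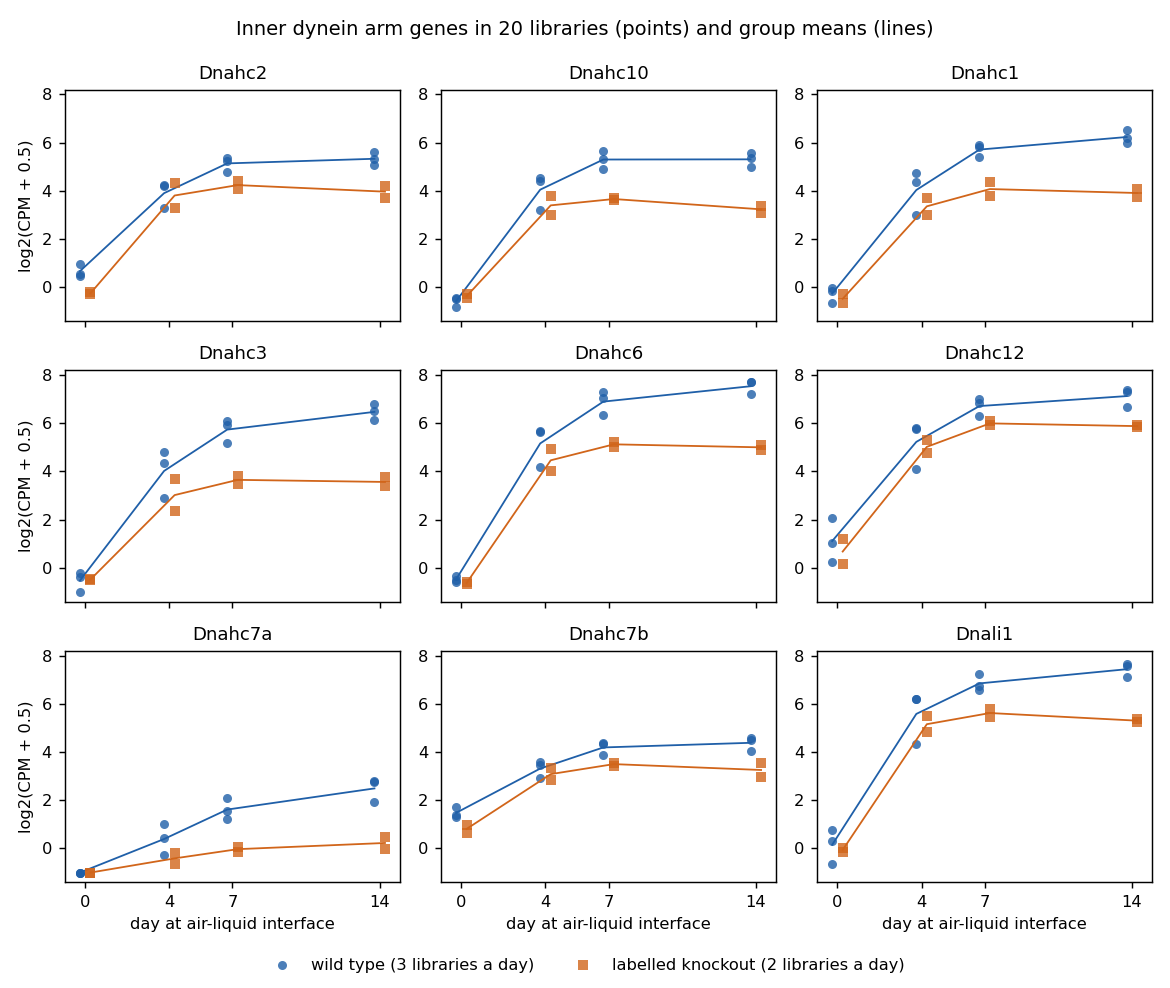
Each panel plots 1 gene as log2(CPM + 0.5) against the day at the air-liquid interface, with a point for every library and a line through the group means. All 9 genes start low, the 2 genotypes overlap at day 4 with the replicate 1 libraries included, and at days 7 and 14 both labelled knockout libraries lie below the 3 wild-type libraries for each gene.

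The promoters of a few members are shown because they hold, or lack, letters of the kind bound by RFX factors, which are known activators of cilia genes. RefSeq promoters (GRCm38.p6, each running 5′ to 3′ towards the gene's start) were matched for 8 of the 9 members, all but Dnahc3. The RefSeq start is not always that of the annotation used for the gene coordinates given here. It lies 1720 bases upstream of it for Dnahc12, 538 bases inside the gene for Dnahc7b and 20 inside for Dnahc6, and is the same for Dnahc7a and Dnahc10. The last 80 bases before the start follow. Capitals mark a palindromic X-box form (GTTGCN, 0 to 3 bases, NGCAAC) or, in Dnahc10, the half-site GTTGCC.
Dnahc6, chr6:73221632-73221711, minus strand: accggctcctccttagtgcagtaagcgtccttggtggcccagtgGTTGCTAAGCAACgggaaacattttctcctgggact
Dnahc7a, chr1:53706785-53706864, minus strand: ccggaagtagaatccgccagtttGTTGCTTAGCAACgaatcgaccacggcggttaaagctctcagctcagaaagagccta
Dnahc7b, chr1:46066773-46066852, plus strand: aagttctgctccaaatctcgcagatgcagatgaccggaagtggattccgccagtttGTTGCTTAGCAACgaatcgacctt
Dnahc10, chr5:124725005-124725084, plus strand: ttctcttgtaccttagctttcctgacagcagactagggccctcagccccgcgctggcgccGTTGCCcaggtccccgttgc
Dnahc12, chr14:26691474-26691553, plus strand: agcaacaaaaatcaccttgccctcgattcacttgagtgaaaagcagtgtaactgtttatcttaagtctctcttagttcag
The palindromic form stood in 3 of the 8 promoters, against 0.451% of 32851 RefSeq promoters of the same length. It was added after these sequences had been seen, so its share is a description. The match in Dnahc6, GTTGCTAAGCAAC, is the reverse complement of the match in Dnahc7a and Dnahc7b, GTTGCTTAGCAAC. It lay 36 to 24 bases before the start in Dnahc6, 57 to 45 in Dnahc7a and 24 to 12 in Dnahc7b. Over 263 aligned bases the promoters of Dnahc7a and Dnahc7b were 85.9% identical, so their matches are not separate cases.

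The other searches ran over both strands of the 300 bases around each start. GTTGCC was found in Dnahc7a, Dnahc7b and Dnahc10, 3 of 8, against 12.5% of all promoters. The promoters of Dnahc7a and Dnahc7b are the 85.9% identical pair, so here too their matches are not separate cases. Another X-box form, GTNNCC, 0 to 3 bases, NGNAAC, which does not cover the palindromic matches above, was in none of the 8 and in 5.25% of all. The forkhead site TGTTTAC, of the kind bound by Foxj1, was in none and in 3.65% of all. The half-site of the p53 family was in none and in 8.36% of all. These are letters in a short window and say nothing about binding there or farther away.

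The I1/f heavy chains came first by role. Dnahc10 (ENSMUSG00000038011, chromosome 5 from 124725085 to 124834308, plus strand, mm10) was at 0.219, 0.0687 and 0.246 CPM in wild type and 0.237 and 0.316 in labelled knockout at day 0, and at 8.78, 20.7 and 22.7 against 13.4 and 7.55 at day 4. It was at 40.0, 29.5 and 49.9 against 11.6 and 12.7 CPM at day 7, and at 31.4, 46.97 and 40.7 against 9.88 and 8.06 at day 14. The genotypes overlapped until day 4 and were apart after it, and wild type did not stand higher at day 14 than at day 7. The difference, labelled knockout minus wild type on the log2(CPM + 0.5) scale, was -1.64 ± 0.35 (SE) at day 7, with an adjusted p of 0.0246 in limma. At day 14 it was -2.07 ± 0.35, with an adjusted p of 0.00222.

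Dnahc2 (ENSMUSG00000005237, chromosome 11 from 69420809 to 69549110, minus strand) is its partner. Its levels at day 0 were 1.46, 0.893 and 0.986 CPM in wild type and 0.373 and 0.316 in labelled knockout, and at day 4 9.17, 18.1 and 18.2 against 19.8 and 9.18. At day 7 they were 41.0, 27.2 and 37.7 against 20.6 and 16.4 CPM, and at day 14 33.1, 47.8 and 39.8 against 18.1 and 12.7. Both labelled knockout libraries were below all wild-type libraries at days 0, 7 and 14, but at day 4 1 of them was the highest of the 5. The difference was -0.90 ± 0.33 at day 7 (adjusted p = 0.281) and -1.36 ± 0.33 at day 14 (adjusted p = 0.0261). So at day 14 Dnahc10 in the labelled knockout was at 22.6% and Dnahc2 at 38.2% of the wild-type mean. Whether these shares differ was not tested.

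Among the single-headed heavy chains Dnahc6 had the highest mean level per length in wild type at day 14, with a range that overlapped that of Dnahc12. Dnahc6 (ENSMUSG00000052861, chromosome 6 from 73017606 to 73221651, minus strand) was at 0.292, 0.206 and 0.164 CPM in wild type and 0.136 and 0.158 in labelled knockout at day 0, and at 17.4, 49.4 and 50.8 against 29.7 and 15.6 at day 4. It reached 132, 79.9 and 158 against 37.2 and 31.8 CPM at day 7, and 146, 208 and 206 against 34.0 and 29.2 at day 14. Every wild-type value at day 14 was above 4 times either labelled knockout value, while at day 4 the groups overlapped. The differences of -1.77 ± 0.39 at day 7 (adjusted p = 0.0282) and -2.53 ± 0.39 at day 14 (adjusted p = 0.00119) were both called.

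Dnahc3 (ENSMUSG00000052273, chromosome 7 from 119922671 to 120095280, minus strand) had the largest difference of the 9 at day 14. Its values were 0, 0.275 and 0.370 CPM in wild type and 0.237 and 0.198 in labelled knockout at day 0, and 6.98, 27.4 and 20.02 against 12.4 and 4.59 at day 4. They were 66.9, 35.8 and 61.2 against 13.7 and 10.6 CPM at day 7, and 69.3, 111 and 89.5 against 12.9 and 9.91 at day 14. Both labelled knockout libraries were below all wild-type libraries at days 7 and 14, and from day 4 to day 7 the labelled knockout changed by 0.63 on the log2 scale, with a 95% interval from -0.47 to 1.73. The difference was -2.08 ± 0.47 at day 7 (adjusted p = 0.0356) and -2.91 ± 0.47 at day 14 (adjusted p = 0.0019). With the replicate number as a block the day 7 value was -1.97, with an adjusted p of 0.0588 in limma, and the call was lost. Of the 50-base stretches of the Dnahc3 transcript, 11.2% also occur in Lyrm1, and the counting rule for such reads is not given in the sources used here.

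Dnahc1, whose human counterpart is mutated in men with malformed sperm tails, is on chromosome 14 (ENSMUSG00000019027, from 31260375 to 31323896, minus strand). Its levels were 0.146, 0.412 and 0.493 CPM in wild type and 0.136 and 0.316 in labelled knockout at day 0, and 7.50, 26.0 and 20.3 against 12.6 and 7.55 at day 4. By day 7 they were 56.8, 41.3 and 59.8 against 13.3 and 20.1 CPM, and by day 14 62.2, 91.9 and 73.3 against 12.99 and 16.3. The lowest wild-type library was above the highest labelled knockout library from day 7. The difference was -1.64 ± 0.40 at day 7 (adjusted p = 0.0496) and -2.32 ± 0.40 at day 14 (adjusted p = 0.00252).

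Dnahc12 (ENSMUSG00000021879, chromosome 14 from 26693274 to 26891703, plus strand) was the member that limma did not call between genotypes at any day in the fit over all 20 libraries. Its values were 3.72, 0.687 and 1.52 CPM in wild type and 1.76 and 0.632 in labelled knockout at day 0, and 16.5, 55.7 and 54.4 against 38.7 and 26.4 at day 4. They were 114, 78.2 and 127 against 66.7 and 59.8 CPM at day 7, and 103, 156 and 167 against 59.8 and 57.0 at day 14. Both labelled knockout libraries were below all wild-type libraries at days 7 and 14. The difference of -1.25 ± 0.51 at day 14 had a 95% interval from -2.32 to -0.17 and an adjusted p of 0.268. At day 7 it was -0.72 ± 0.51 (adjusted p = 0.904). With the day 14 libraries alone limma gave -1.21 at day 14 (adjusted p = 0.0161), against 0.148 to 0.676 in the other alternatives. In the authors' deposited table its adjusted p was 0.047 at day 7 and 3.83e-05 at day 14.

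The paralogs Dnahc7a and Dnahc7b lie on chromosome 1, Dnahc7a from 53397006 to 53706784 on the minus strand (ENSMUSG00000096141) and Dnahc7b from 46066315 to 46373546 on the plus strand (ENSMUSG00000041144). Of the 50-base stretches of the Dnahc7a transcript, 30.6% also occur in Dnahc7b and 30.3% in Dnah7c. Reads from these stretches could be split among the genes, and the levels of both are uncertain for that reason. Dnahc7c itself did not exceed 0.315 CPM in any library and was not tested.

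No read was assigned to Dnahc7a in any of the 5 libraries of day 0. It was at 0.327, 0.868 and 1.49 CPM in wild type and 0.135 and 0.389 in labelled knockout at day 4, and at 1.81, 2.41 and 3.74 against 0.553 and 0.411 at day 7. At day 14 it was at 3.29, 6.42 and 6.26 CPM against 0.498 and 0.873, which in the labelled knockout were 12 and 17 reads. Measured against 3 reads over all day 0 libraries of a genotype, its level at day 14 was at least 93.3-fold higher in wild type and at least 12.5-fold higher in labelled knockout. The genotype difference was -1.64 ± 0.36 at day 7 (adjusted p = 0.0279) and -2.26 ± 0.36 at day 14 (adjusted p = 0.00157).

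Dnahc7b behaved differently in level from its paralog, with reads in every library of day 0. It was at 2.77, 1.99 and 2.14 CPM in wild type and 1.46 and 1.07 in labelled knockout at day 0, and at 6.98, 11.5 and 10.5 against 9.47 and 6.69 at day 4. It was at 20.1, 14.2 and 19.6 against 11.3 and 10.3 CPM at day 7, and at 16.2, 22.1 and 23.5 against 11.2 and 7.24 at day 14. The labelled knockout was below wild type at days 0, 7 and 14 and overlapped it at day 4. The difference was -0.69 ± 0.27 at day 7 (adjusted p = 0.334) and -1.13 ± 0.27 at day 14 (adjusted p = 0.0236).

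Dnali1 (ENSMUSG00000042707, chromosome 4 from 125055338 to 125065703, minus strand), the light chain, was at 0.146, 0.756 and 1.19 CPM in wild type and 0.407 and 0.514 in labelled knockout at day 0, and at 19.7, 72.3 and 73.8 against 44.6 and 27.5 at day 4. It was at 93.9, 105 and 151 against 42.6 and 55.1 CPM at day 7, and at 136, 190 and 197 against 40.9 and 36.9 at day 14. In the labelled knockout it was at 22.3% of the wild-type mean at day 14, close to Dnahc10. The difference was -1.23 ± 0.47 at day 7 (adjusted p = 0.306) and -2.13 ± 0.47 at day 14 (adjusted p = 0.0136).

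Across the 9 genes, the count called lower in the labelled knockout was 0 at day 0, 0 at day 4, 5 at day 7 and 8 at day 14. Of all 15738 tested genes, 0.4% were called lower at day 0, 0.235% at day 4, 0.82% at day 7 and 3.8% at day 14. The median difference of the 9 was -0.21, -0.65, -1.64 and -2.13 at those days, against 0.03, 0.02, -0.02 and -0.01 over all tested genes. Both labelled knockout libraries were below all wild-type libraries for 3 of the 9 genes at day 0, none at day 4 and all 9 at days 7 and 14. Over all tested genes this held for 8.5%, 9.18%, 13.3% and 17.6%. In the authors' deposited table, which reports its own log2 fold changes and adjusted p-values, 8 of the 9 had an adjusted p under 0.05 at day 7, all but Dnahc7b, and 9 did at day 14. The share of all genes under that threshold in the authors' table is not given here. The limma shares above come from another fit and are not a background for these 2 counts.

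**Figure D2:**
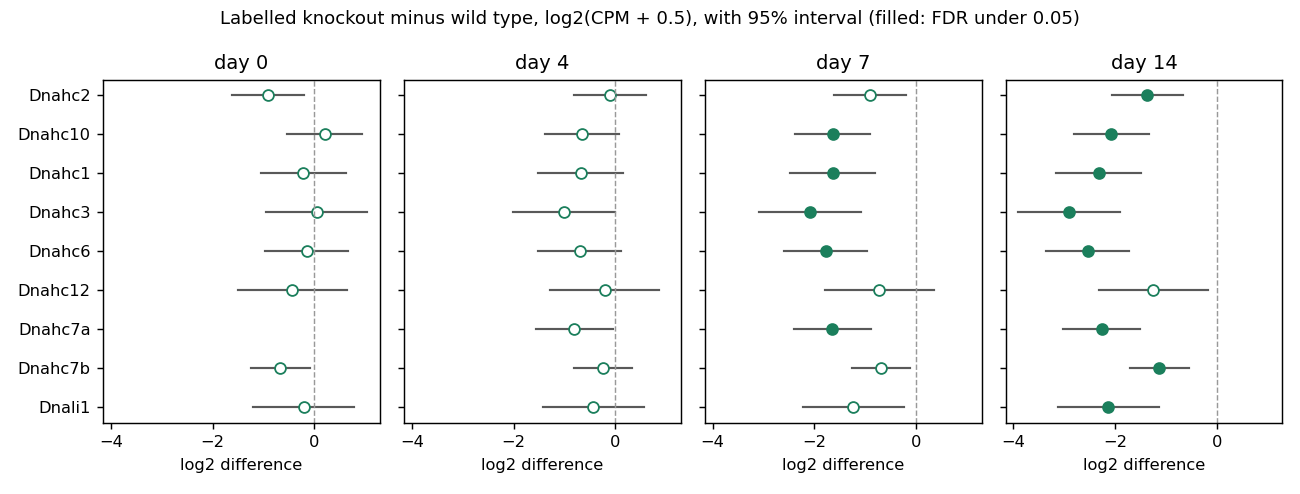
The points are the differences of labelled knockout minus wild type in log2(CPM + 0.5) for each gene at each day, with 95% intervals from limma, and filled points have an adjusted p under 0.05. The intervals span 0 for most genes at days 0 and 4, and at day 14 all 9 points lie between -2.91 and -1.13. Dnahc7a has no point at day 0, where it had no reads.

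These counts rest unevenly on single libraries. At day 14 the count of 8 was 5 without wild-type replicate 2, 5 without wild-type replicate 3 and 5 without labelled knockout replicate 2, where Dnahc2, Dnahc7b and Dnali1 were no longer called. Without all 4 labelled knockout libraries numbered 2, a choice made after seeing the data, it was 1, with differences from -2.70 to -0.81. At day 7 the count of 5 became 1 without wild-type replicate 1, 3 without wild-type replicate 2, and 0 without wild-type replicate 3 or either labelled knockout library. In edgeR it was 2 at day 7 and 8 at day 14.

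At days 0 and 4 limma called none of the 9. Unadjusted p was under 0.05 for 2 genes at day 0, Dnahc2 and Dnahc7b, and for 1 at day 4, Dnahc7a. At day 0 edgeR called 0 and DESeq2 1, and at day 4 both called 0. The day 4 differences ranged from -1.002 (Dnahc3) to -0.10 (Dnahc2). Leaving out both libraries titled day 3 left 1 labelled knockout library at day 4. The differences then ran from -2.24 (Dnahc3) to -0.68 (Dnahc7b), with Dnahc6 at -1.66, Dnahc1 at -1.55 and Dnahc10 at -1.47. With 1 library the spread of the labelled knockout at that day cannot be measured, so no calls are given. Within wild type, replicate 1 had the lowest day 4 value for each of the 9 genes. In the labelled knockout it went the other way. There replicate 1, also titled day 3, was above replicate 2 for every gene but Dnahc7a.

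In wild type all 9 genes rose from day 0 to day 4 and to day 14. Over all tested genes 13.7% rose by day 4 and 21.8% by day 14. The rise to day 14 ran from 2.91 ± 0.24 (Dnahc7b) to 8.01 ± 0.35 (Dnahc6) on the log2 scale, with a median of 6.01, or 6.49 with Dnahc7a set at its bound. By day 4 the median was already 4.29, and 4.82 without the replicate 1 libraries titled day 3, where all 9 were again called. From day 4 to day 7 none was called in wild type (0.0699% of all genes rose), although unadjusted p was under 0.05 for all 9 and adjusted p lay between 0.0574 and 0.224. With the replicate number as a block 3 were called at that step, in DESeq2 5 and in edgeR 0. Without wild-type replicate 2 of day 4 it was 3, and without wild-type replicate 2 of day 7 it was 1. From day 7 to day 14 none was called (0.0% of all genes rose), 1 had an unadjusted p under 0.05, and edgeR and DESeq2 called 0.

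In the labelled knockout all 9 genes also rose from day 0 to day 14, where 14.3% of all genes did. Apart from Dnahc7a, whose level at day 0 was 0 and whose rise is given above as a bound, the rise ran from 2.44 ± 0.30 (Dnahc7b) to 5.63 ± 0.42 (Dnahc6). The median of the 9 was 4.21, also with Dnahc7a set at its bound. The call of Dnahc7a (adjusted p = 0.0236 in limma) was lost in 5 of 14 alternatives. With 1 library left out its adjusted p was 0.078 without labelled knockout replicate 1 of day 0, 0.084 without replicate 2 of day 0 and 0.162 without replicate 2 of day 14. It was 0.294 without all 4 labelled knockout libraries numbered 2 and 0.0734 with a pseudocount of 1. By day 4 there were 8 of 9 higher, all but Dnahc7a, against 9.25% of all genes. Without the replicate 1 libraries of day 4 that count was 8 too, and none was called from day 4 to day 7. Neither from day 4 to day 7 nor from day 7 to day 14 was any member called by limma, edgeR or DESeq2, and none had an unadjusted p under 0.05. Over all genes 0.00635% rose at the first of these steps and 0.0% at the second. The limma estimates for the last step ran from -0.43 (Dnahc10) to 0.26 (Dnahc7a). A p that misses the threshold does not show a flat course: for Dnahc10 the 95% interval of that step was -1.24 to 0.38.

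The change from day 0 to day 14 itself was called smaller in the labelled knockout for 4 genes, where 0.985% of all genes were called in that direction. The differences between the 2 changes were -2.95 ± 0.67 for Dnahc3 (adjusted p = 0.0456), -2.38 ± 0.55 for Dnahc6 (0.0471), -2.28 ± 0.49 for Dnahc10 (0.0378) and -2.26 ± 0.51 for Dnahc7a (0.0451). Dnahc1 had -2.11 ± 0.56 (0.0959) and Dnali1 -1.92 ± 0.66 (0.24). Dnahc2, Dnahc7b and Dnahc12 had values from -0.81 to -0.45. In edgeR and in DESeq2 the count was 0. In limma it was also 0 when 1 library was left out, for either labelled knockout library of day 0 or of day 14 and for wild-type replicates 2 and 3 of either day. It was 1 without wild-type replicate 1 of day 0. None of the 9 was called for the change to day 4 or to day 7 (0.0191% and 0.146% of all genes), where limma gave 0 and 5 unadjusted p under 0.05, and edgeR and DESeq2 called 0.

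The makeup of the summed level at day 14 is given by the share of each gene in it. Dnahc12 made up 17.1% to 19.8% of the summed CPM of the 9 genes in wild type, and 29.9% and 32.0% in labelled knockout. Dnahc6 made up 23.7% to 24.5% against 16.96% and 16.4%, and Dnahc3 10.6% to 12.6% against 6.46% and 5.56%. The groups did not overlap for these 3 genes, nor for 4 others. Dnahc2 (4.71% to 5.52% against 9.03% and 7.12%) and Dnahc7b (2.51% to 2.78% against 5.61% and 4.07%) had higher shares in labelled knockout, and Dnahc7a (0.547% to 0.741% against 0.249% and 0.490%) and Dnali1 (21.6% to 23.4% against 20.4% and 20.7%) lower ones. The shares of Dnahc1 and Dnahc10 overlapped. The shares of a library add up to the whole, so a higher share of 1 gene lowers the others, and the genes are not separate observations. With 3 against 2 libraries, groups can also stand apart by chance. These shares are given as a description, with no test.

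**Figure D3:**
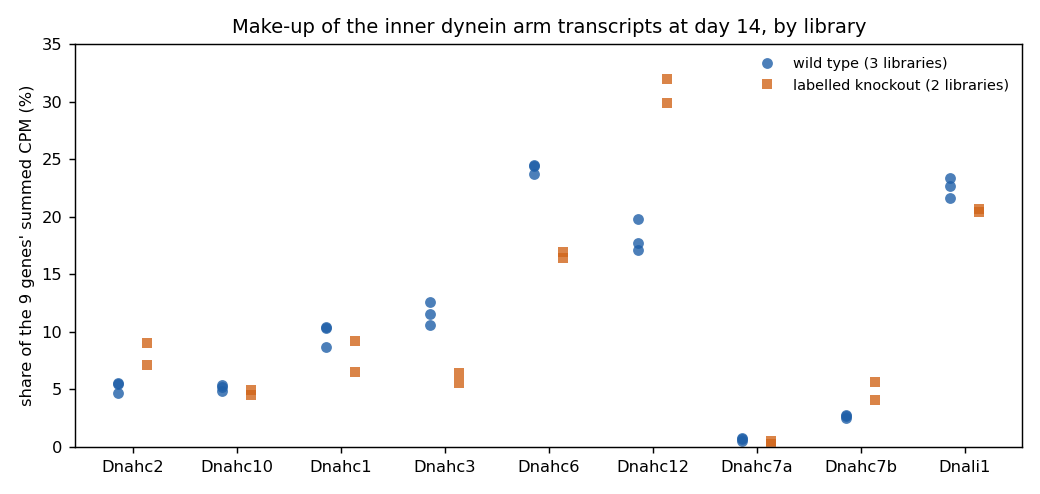
Each point is the share of 1 gene in the summed CPM of the 9 genes in 1 library of day 14, in percent. Dnahc12 takes a higher share in both labelled knockout libraries (29.9% and 32.0%) than in the 3 wild-type libraries (17.1% to 19.8%), and Dnahc6 and Dnahc3 take lower shares. The groups are also apart for Dnahc2, Dnahc7a, Dnahc7b and Dnali1.

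Levels can be compared between genes per length. In CPM per kilobase of exons at day 14, wild type had Dnali1 at 81.8 ± 15.7 (SD, n = 3), far above the heavy chains. Below it came Dnahc6 at 14.1 ± 2.7, Dnahc12 at 11.8 ± 2.9, Dnahc3 at 6.27 ± 1.4, Dnahc1 at 5.81 ± 1.2, Dnahc2 at 2.69 ± 0.49, Dnahc10 at 2.47 ± 0.49, Dnahc7b at 1.03 ± 0.19 and Dnahc7a at 0.417 ± 0.14. The ranges of Dnahc6 and Dnahc12 overlapped, as did those of Dnahc3 and Dnahc1 and those of Dnahc2 and Dnahc10. In labelled knockout the order was Dnali1 at 18.2, Dnahc12 at 4.86, Dnahc6 at 2.38, Dnahc1 at 1.12, Dnahc2 at 1.03, Dnahc3 at 0.799, Dnahc10 at 0.557, Dnahc7b at 0.463 and Dnahc7a at 0.0537. There Dnahc12 was above Dnahc6 without overlap. The length is that of all annotated exons together, which for Dnahc7b was 19.98 kb against 12314 bases in its longest transcript. Of the 50-base stretches, 40.3% in Dnahc7a and 48.4% in Dnahc7b also occur in other genes. The places of these paralogs in the order are uncertain for both reasons.

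Likeness of course was measured as the root mean square difference in log2(CPM + 0.5), each gene centred on its own mean over the 20 libraries. The closest pair of members was Dnahc1 and Dnahc3 at 0.321, and the farthest Dnahc6 and Dnahc7a at 2.00. From the mean course of the 9, members lay between 0.277 (Dnahc10) and 1.21 (Dnahc7a). Outside the 9, and leaving out predicted and clone-named genes, the nearest were Lhb at 0.218, Lrrc71 at 0.225, Dnaic1 at 0.270, Ccdc30 at 0.277, Dnahc11 at 0.280 and Spef2 at 0.284. The identifier that the table pairs with Lhb is not in the annotation used here. The median over 15729 other tested genes was 2.17. Dnaic1 is an intermediate chain and Dnahc11 a heavy chain of the outer arm. Dnaic1 had a wild-type mean of 42.7 and a labelled knockout mean of 6.83 CPM at day 14.

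The genes that accompany the inner arm heavy chains were also lower at day 14. Of the 7 I1/f intermediate chains, tether and modifier genes, 6 were called lower, with a median of -1.98. These were Ccdc37 at -2.91 and Ccdc42b at -1.92, which in Chlamydomonas form a modifier of inner arms, Wdr65 at -2.71, Wdr52 at -2.31, a tether of the I1/f motor head, and the intermediate chains Wdr63 at -1.98 and Wdr78 at -1.70. Wdr96, the other tether gene, had -1.78 (adjusted p = 0.0601). At day 7 none of the 7 was called, 7 had an unadjusted p under 0.05, and the median was -1.51.

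The docking and nexin link list had 6 of 8 called lower at day 14, with a median of -1.58. It was led by Tcte1 at -2.75, Drc1 at -2.49 and Ccdc40 at -2.03, which are a link subunit, a link base subunit and a ruler that sets arm spacing. Among assembly factors, which fold and preassemble arms in the cytoplasm, 6 of 11 tested were called lower, with a median of -1.14. Lrrc6 at -1.85, Dyx1c1 at -1.61 and Dnaaf1 at -1.55 had the largest differences there.

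Outer arm genes gave similar counts. Of 5 other axonemal heavy chains tested, 3 were called lower, and the median of the 5 was -1.85. The 3 were Dnahc9 at -2.54, Dnahc5 at -2.01 and Dnahc11 at -1.85, all of the outer arm. Dnahc8 at -0.73 (adjusted p = 0.461) and Dnahc17 at -0.18 (0.943), known mainly from sperm tails, were not called, and Dnahc14 and Dnahc7c were not tested. Of 8 tested outer arm intermediate chain, light chain and docking genes, 6 were called lower, with a median of -1.55. They were led by Dnaic1 at -2.54, Armc4 at -2.29 and Dnaic2 at -1.75. By contrast, the 12 genes of cytoplasmic and intraflagellar dynein had a median of 0.01. Of these, 1 was called lower, Dync2li1 at -0.99, a light intermediate chain of the intraflagellar motor. No difference between these lists and the 9 genes was tested.

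**Figure D4:**
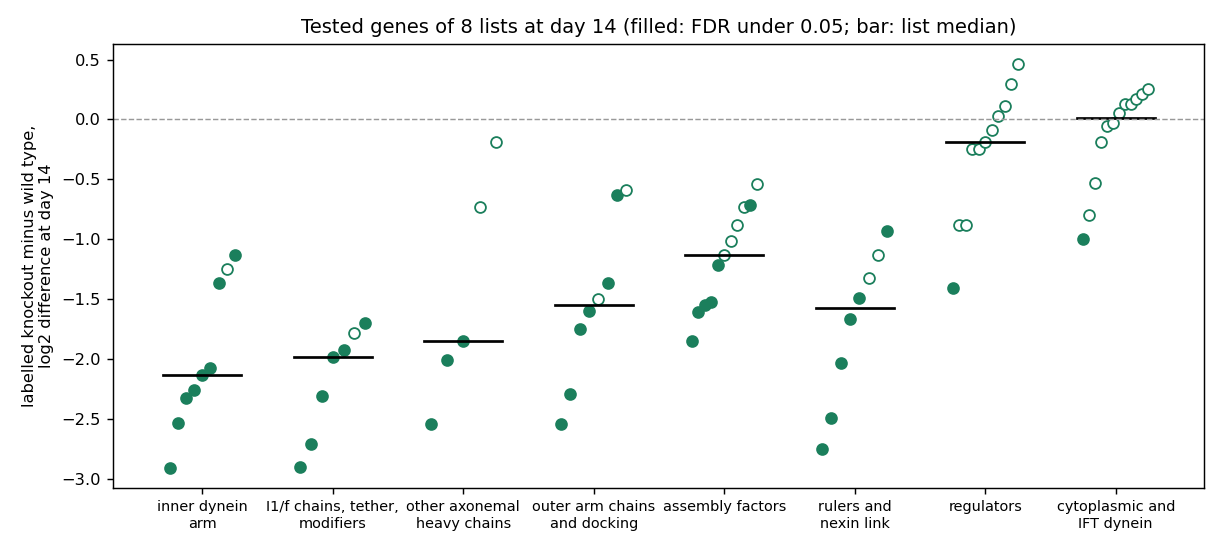
Each point is 1 tested gene, plotted as the log2 difference of labelled knockout minus wild type at day 14, in 8 lists, with a bar at the list median and filled points where the adjusted p was under 0.05. The medians of the inner arm, I1/f, heavy chain, outer arm, assembly and docking lists lie between -2.13 and -1.14, and those of the regulators and of cytoplasmic dynein at -0.19 and 0.01.

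Of 11 genes that control the multiciliated cell programme, 1 was called lower at day 14, Rfx2 at -1.404 ± 0.27 (adjusted p = 0.00573). Of the 11, 3 had an unadjusted p under 0.05 in limma. The median of the 11 was -0.19, and no difference between them and the 9 genes was tested. The 11 also hold Trp73, the gene named by the knockout label, and E2f4, E2f5 and Tfdp1. The median is thus not that of the genes named here alone. Mcidas was at 34.9, 41.1 and 36.0 CPM in wild type and 57.8 and 45.9 in labelled knockout at day 14. Gmnc was at 59.4, 54.1 and 41.3 against 59.5 and 45.6 CPM. Ccno, needed to multiply centrioles, was at 90.2, 91.9 and 89.0 against 135 and 91.2 CPM. Myb, an early regulator, was at 120, 160 and 151 against 134 and 108 CPM. Foxj1, which drives motile cilia genes, was at 487, 492 and 476 against 334 and 208 CPM. Its groups did not overlap, and its difference was -0.88 ± 0.31 (adjusted p = 0.172). Rfx3, a factor of the family that binds X-boxes, was at 68.1, 100.3 and 92.6 against 48.1 and 44.8 CPM. Its groups did not overlap either, and its difference was -0.88 ± 0.28 (adjusted p = 0.0984).

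Markers of other cell types were read in the same libraries, and the summed squamous list was higher in the labelled knockout at every day. The summed squamous list was 356 to 483 CPM in wild type and 1584 to 1616 in labelled knockout at day 14, with 4 of 12 tested genes higher and 1 of 13 at 0 in either genotype. At day 0, when limma called no dynein member, it was 631 to 1300 against 4943 to 8445 CPM, with 8 of 12 higher. At day 4 it was 451 to 731 against 5315 to 7034 CPM with 6 higher, and at day 7 427 to 660 against 2200 to 2928 CPM with 4 higher. The median squamous difference was 2.32, 2.55, 1.22 and 1.16 at days 0, 4, 7 and 14. Over all 15738 tested genes limma called 347, 181, 258 and 663 in either direction at those days. Of these calls 81.8%, 79.6%, 50% and 9.8% were higher in the labelled knockout. The basal list summed to 3503 to 5016 against 5945 to 6179 CPM, with 1 of 9 higher. The secretory list summed to 44950 to 47780 against 41330 to 54400 CPM, with 2 of 9 lower, Bpifb1 and Muc5b. At day 0 it summed to 23730 to 28250 against 17580 to 19600 CPM, with 4 of 9 lower. Fibroblast and smooth muscle genes summed to 14.9 to 31.6 against 15.7 to 51.7 CPM, with 0 of 10 called by limma and 0 with an unadjusted p under 0.05. Leukocyte genes summed to 689 to 827 against 880 to 2752 CPM, of which Lyz2 was 2740 CPM in labelled knockout replicate 2, and 0 of 3 tested were called by limma, 1 with an unadjusted p under 0.05. Their part in the lower dynein levels was not tested.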

How the data were processed

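The members and gene lists were chosen with earlier results of these data known. Per the labels' protocols, RNA came from RNeasy columns and libraries from a TruSeq RNA v2 kit. The submitters' processing notes name STAR 2.3.0e, DESeq2 1.4.5 and build mm10. How reads were counted, with which annotation and strand, is not given in the sources used here. Per the file headers, the table holds read counts, but its signal proved to be counts scaled by the authors within each day; log2 fold changes and adjusted p-values of the authors are also deposited. Dividing by the value of 1 read in each library gave back whole reads (100% of nonzero values, within 0.1 reads). Reads were scaled to CPM by TMM in edgeR 4.0.16. A gene was tested where 2 or more libraries reached 0.5 CPM, which held for 15738. Their log2(CPM + 0.5) was fitted in limma 3.58.1 (R 4.3.3; trend and robust), with 8 group means and 15 contrasts. Replicates are biological per the series' design text, with no tie to single mice given. A call is a Benjamini-Hochberg adjusted p under 0.05 over the tested genes, and SE is limma's moderated SE. This scale understates the change of low genes. On simulated data for the day 14 contrast, with 200 of 15090 genes changed, 33% of changes of 1 and 92% of changes of 2 (log2) were called. Same-numbered libraries of both genotypes deviated together from their group means (correlation 0.331 to 0.647 over 7869 genes). With 2 labelled knockout libraries a day, the values of a day are not independent. The labels do not say whether the numbers pair the samples, and the fit has no block. Alternatives were edgeR, DESeq2 1.42.0, other scaling, pseudocounts, filters, the replicate block, single days and left-out libraries. Coordinates and lengths are from GENCODE vM21 and promoters from RefSeq. Besides the members, named genes were a chosen set of regulators, all tested I1/f and heavy chain genes, up to 3 called genes with the largest change of each other list, and the 6 nearest by course. Dync2li1, Rfx3, Bpifb1, Muc5b, Lyz2, Cd68, Itgam, Epcam and Ptprc were named after their values were seen.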

Additional observations from a re-analysis of the deposited data

Results flagged for a closer look

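For 4 genes the change from day 0 to day 14 differed between genotypes by limma's test of the difference itself. The difference, labelled knockout minus wild type on the log2(CPM + 0.5) scale, was -2.95 for Dnahc3, -2.38 for Dnahc6, -2.28 for Dnahc10 and -2.26 for Dnahc7a. Adjusted p was 0.0456, 0.0471, 0.0378 and 0.0451. Dnahc7a had no reads at day 0 in either genotype, so its value is that of day 14 alone. In edgeR and in DESeq2 none of the 4 passed.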

How the results depend on the processing

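Of 1276 recomputed values of single members, 1123 kept their direction and their side of the threshold. With the direction kept, 120 lost their call and 12 gained one. A further 21 changed sign. None of the 21 belonged to a called value. Counts of called members moved by over 1.5 times in 36 of 244 cases, and the cause was not tested. At day 0, DESeq2 called 1 (main 0). At day 4 (main 0), leaving out both replicate 1 libraries left 1 labelled knockout library, and differences ran from -2.24 (Dnahc3) to -0.68 (Dnahc7b). At day 7 (main 5) the count was 2 in edgeR, 1 with a pseudocount of 0.1, 3 with no filter, 4 with the replicate block, 0 without all 4 labelled knockout libraries numbered 2, and 0 to 3 with 1 library left out. At day 14 (main 8) it was 1 without those 4 libraries and 5 to 8 with 1 library left out. From day 4 to day 7 in wild type (main 0) it was 5 in DESeq2, 3 with the replicate block and 0 to 3 with 1 library left out. For the change to day 7 between genotypes (main 0) it was 1 without both replicate 1 libraries of day 4. For the change to day 14 (main 4) it was 0 in edgeR, in DESeq2, with a pseudocount of 0.1, with no filter and without the 4 libraries numbered 2, 2 with library size scaling, 1 with a 2 CPM filter and 0 to 4 with 1 library left out. Under the block the only member call lost was Dnahc3 at day 7 (adjusted p = 0.0588 in limma), and outside day 7 and the step from day 4 to day 7 in wild type no count of called members changed. Sign changes at day 0 were Dnahc3 at -0.17 in edgeR, -0.14 in DESeq2 and -0.19 to 0.20 with 1 library left out; Dnali1 at 0.018 with the block and -0.60 to 0.0795 with 1 left out; and Dnahc12 at -0.93 to 0.0666, and 0.0633 without the 4 libraries. At day 4, with 1 library left out, Dnahc2 ran from -0.63 to 0.44, Dnahc7b from -0.47 to 0.0048 and Dnahc12 from -0.76 to 0.0872. Without the 4 libraries they were at 0.44, 0.0039 and 0.0654. For the change to day 14, Dnahc2 was at 0.34 in edgeR, 0.33 in DESeq2 and 0.0338 with a pseudocount of 0.1. Over all genes, calls between genotypes ran over the alternatives from 8 to 568 at day 0 (main 347), 44 to 362 at day 4 (181), 26 to 530 at day 7 (258) and 127 to 870 at day 14 (663). Library size in place of TMM shifted the median of all genes by over 0.1 (0.15) only for day 0 to day 14 in labelled knockout, where the share of calls that were higher went from 44.8% to 58.3%. That share went from 50.7% to 62.7% for day 0 to day 4 and 55% to 65.5% for day 4 to day 7 in wild type, and from 46.1% to 56.3% for day 0 to day 4 in labelled knockout. No member value recomputed under both scalings changed sign between them. With 12 and 17 reads of Dnahc7a at day 14, depth limits its labelled knockout level.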
